A study of Homo sapiens with 16 samples.

Results

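The cytosolic ribosomal protein genes were taken as the protein-coding RefSeq genes (GRCh38, chromosomes 1 to 22 and X) whose symbol is RPL or RPS followed by a digit, or RPSA, RPLP0, RPLP1 or RPLP2, without the RPS6 kinases and the RPS19 binding protein. The rule gave 88 of 19974 genes, all 88 with a known strand, against 19630 genes with a strand in all. Of the 88, 77 are single genes of the ordinary ribosome, 8 are paralogs of such genes, and 3 are readthrough genes (RPS10-NUDT3, RPL17-C18orf32 and RPL36A-HNRNPH2) that start at the same base as RPS10, RPL17 and RPL36A and therefore repeat their values.

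Peaks of acetylated histone H3 lysine 27 (H3K27ac), found by ChIP-seq, were read in 14 libraries of K562, an established human erythroleukemia cell line. In 7 libraries a fixed 0.25 µg of antibody met 7 amounts of chromatin, doubling from 0.31 and 0.62 up to 20 µg, measured by its DNA content (DNAchrom), which gave antibody titers of 32, 16, 8, 4, 2, 1 and 0.5, where a titer of 1 is the optimal ratio of antibody to chromatin. In the other 7 libraries the same amounts of DNAchrom met antibody scaled to a titer of 1, and each arm had its own input library. The study asked how the antibody amount, and the chromatin amount at constant titer, affect the peaks. Each condition was 1 library, except that 10 µg at titer 1 was made once in each arm, so p-values measure the scatter of libraries around a trend or a matched difference and not the spread between separate cultures. On these chromosomes the lists held between 64066 and 82101 peaks, counting those whose −log10 q reached 2. The erythroid markers GATA1, TAL1, KLF1, NFE2, LMO2, HBG1 and HBG2 each had a peak within 5 kb of the transcription start site (TSS) in all 14 lists, while the B cell gene MS4A1, the T cell gene CD3E, the liver gene ALB and the islet gene INS had none in any list.

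A ribosome is built from a large subunit, which joins amino acids, and a small subunit, which reads the mRNA, and the RPL and RPS genes encode their proteins in near-equal amounts. These genes are among the most highly transcribed in dividing cells, and their mRNAs mostly begin with a C followed by an unbroken run of pyrimidines, the 5′ terminal oligopyrimidine (TOP) motif, through which their translation answers to growth signals. In erythroid cells a shortage of single ribosomal proteins is known to cause Diamond-Blackfan anemia, and H3K27ac marks the nucleosomes on both sides of active promoters.

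The starts of 12 genes are printed to show a sequence feature that set the ribosomal protein genes apart. This is a start at a C in a run of pyrimidines, and genes with it and without it are shown. Each stretch runs from 60 bases before the TSS through 20 bases from it, 5′ to 3′ (RefSeq, GRCh38.p14), and capitals mark the unbroken run of C and T that holds the TSS base, where there is one. RPLP0, RPL22, RPS19, RPS14, RPS9, RPL7A, RPS16 and RPL39 start at a C within such a run, RPS29 starts at a T in a run of 2 bases, and RPL32, RPS4X and the testis paralog RPL10L start at a purine in this annotation.
RPLP0, chr12:120201092-120201171, minus strand: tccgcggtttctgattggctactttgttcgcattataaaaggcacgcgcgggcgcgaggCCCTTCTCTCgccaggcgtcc
RPL22, chr1:6199576-6199655, minus strand: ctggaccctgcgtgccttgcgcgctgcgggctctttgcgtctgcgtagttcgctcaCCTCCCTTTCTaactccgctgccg
RPS19, chr19:41860195-41860274, plus strand: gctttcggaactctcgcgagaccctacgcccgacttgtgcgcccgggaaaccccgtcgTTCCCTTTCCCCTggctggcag
RPS14, chr5:150449720-150449799, minus strand: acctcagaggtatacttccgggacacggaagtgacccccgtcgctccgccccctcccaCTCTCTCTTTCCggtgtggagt
RPS9, chr19:54200798-54200877, plus strand: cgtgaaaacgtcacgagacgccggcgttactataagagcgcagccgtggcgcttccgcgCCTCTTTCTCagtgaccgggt
RPL7A, chr9:133348158-133348237, plus strand: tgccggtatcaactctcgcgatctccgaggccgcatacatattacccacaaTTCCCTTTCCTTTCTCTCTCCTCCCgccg
RPS16, chr19:39435930-39436009, minus strand: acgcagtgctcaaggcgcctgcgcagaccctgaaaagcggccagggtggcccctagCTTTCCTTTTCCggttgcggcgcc
RPL39, chrX:119791611-119791690, minus strand: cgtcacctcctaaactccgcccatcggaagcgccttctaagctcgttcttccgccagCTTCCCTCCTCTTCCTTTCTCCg
RPS29, chr14:49598691-49598770, minus strand: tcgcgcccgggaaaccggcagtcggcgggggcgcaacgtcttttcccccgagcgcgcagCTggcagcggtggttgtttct
RPL32, chr3:12841563-12841642, minus strand: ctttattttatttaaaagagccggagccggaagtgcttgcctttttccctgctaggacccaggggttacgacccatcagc
RPS4X, chrX:72277229-72277308, minus strand: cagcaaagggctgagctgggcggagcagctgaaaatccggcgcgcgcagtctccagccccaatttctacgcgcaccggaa
RPL10L, chr14:46651762-46651841, minus strand: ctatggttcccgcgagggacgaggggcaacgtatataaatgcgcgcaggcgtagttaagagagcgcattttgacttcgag

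The RefSeq promoter table held an entry at the TSS used here for 67 of the 88 genes and for 13725 other genes. A C at the TSS followed by 4 pyrimidines stood in 44 of the 67 (65.7%), against 587 of the other genes (4.28%). The letters CTTTC, starting within 10 bases of the TSS on the coding strand, were found in 28 of the 67 (41.8%) and in 3.27% of the other promoters. Over the 250 bases before and 50 after the start, on both strands, the ETS core CCGGAAG was found in 23 of the 67 (34.3%) and 14.5% of the others, and the YY1 core GATGGC in 18 (26.9%) and 13.5%. The TATA letters TATAAA (10.4% and 10.0%) and the GC box GGGCGG (55.2% and 58.5%) were found in similar shares. A match of letters is a description of the window and not of a bound factor.

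Nearly all ribosomal protein genes carried H3K27ac in every library. At least 1 peak lay within 5 kb of the TSS in all 14 lists for 86 of the 88 genes (97.7%), against a background of 51.8% of all 19630 genes and 51.6% of the genes other than these. All 77 single genes were among the 86, as were all 33 small-subunit genes and all 19 genes mutated in Diamond-Blackfan anemia. Both exceptions were paralogs: RPL39L, a copy of RPL39 used in testis and in some tumours, had a peak in 13 lists and none in the library of 0.31 µg at titer 32, and RPL10L, an intronless copy of RPL10 used in testis, had none in any list. Within 1 kb, 84 of the 88 genes had a peak in all 14 lists, against 47.6% of all genes. Other growth-related lists were similarly complete: 14 of 14 translation factors and other genes with TOP mRNAs, 16 of 16 ribosome biogenesis genes, 74 of 77 mitochondrial ribosomal protein genes and 35 of 40 proteasome genes had a peak in all 14 lists. FAU, which encodes RPS30 fused to a ubiquitin-like domain, and the ribosomal scaffold gene RACK1 fall outside the symbol rule and also had peaks in all 14 lists.

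The strength of a gene was taken as the fold enrichment over background of its strongest peak within 5 kb, and its rank as the percentile of that peak among all peaks of the same list. Across the 14 lists the median fold enrichment of the 86 genes lay between 7.46 and 15.96, and in every list it was above the median of the other genes with a peak in all lists, by 1.03 to 1.17 times. Their median percentile was between 91.2 and 95.6, that of the other genes between 88.9 and 91.9, and the difference was 2.26 ± 1.03 percentage points (mean ± SD over 14 lists). In these terms the ribosomal protein promoters were only slightly stronger than the average promoter with a constant peak, and the median percentiles of the proteasome promoters lay in the same range, between 91.8 and 94.99. The strongest peak is the highest of all peaks in the window. The 86 genes had a median of 3 to 4 peaks there per list, and the other genes 3. The part of this in the difference was not tested.

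**Figure D1:**
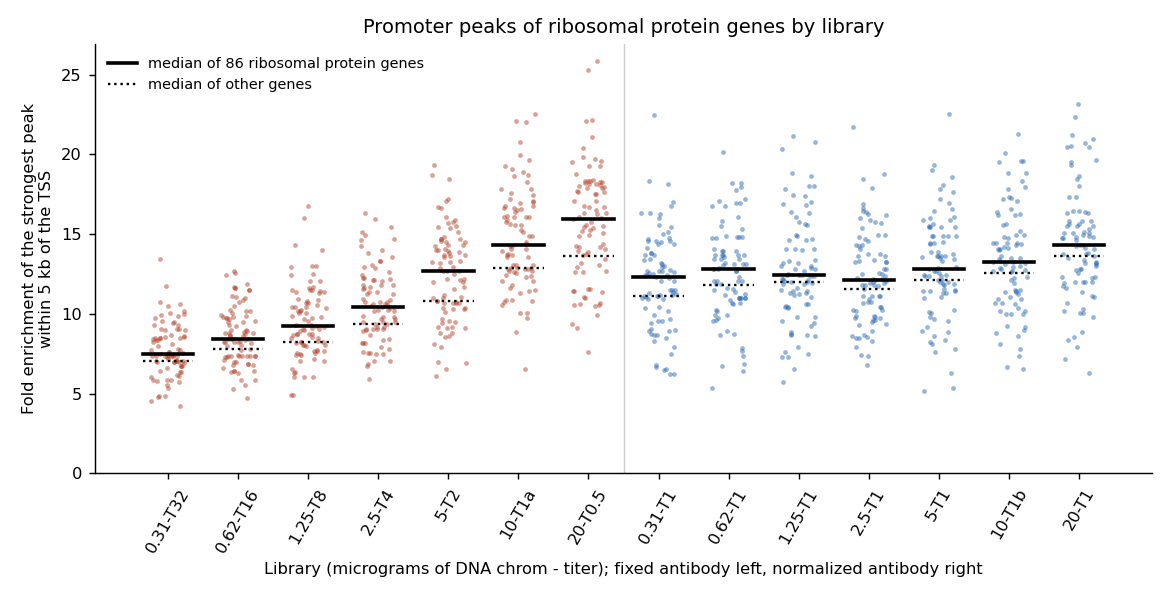
Fold enrichment of the strongest peak within 5 kb of the TSS (y axis, linear) for the 86 ribosomal protein genes (points) in each library (x axis), with their median (solid bar) and the median of other genes (dotted bar). The medians of the 7 fixed-antibody libraries at the left climb from 7.46 at titer 32 to 15.96 at titer 0.5, and those of the 7 normalized libraries at the right stay between 12.1 and 14.3.

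The genes differed more in how far their peaks reached. The length covered by peaks within 5 kb on either side had a median of 4631.5 bp for the 86 genes and 2786 bp for the other genes (median over lists of each list's median), and the strongest peak was 2152 bp wide against 1577 bp. In each of the 14 lists the covered length was larger for the ribosomal protein genes, from 2349.5 against 1533 bp in the library of 0.31 µg at titer 32 to 4990.5 against 2861.5 bp in the fixed-antibody library of 10 µg. RPLP2, whose TSS is 466 bp from that of the divergent gene PIDD1, had the most covered length, 8152 ± 779 bp (SD, n = 14 lists), and RPS4X, with 1245 ± 547 bp, the least of the single genes. The median covered length was 3021.5 bp for mitochondrial ribosomal protein genes and 2964.5 bp for proteasome genes. It was 3576.5 bp for ribosome biogenesis genes and 3808.75 bp for the 14 other genes with TOP mRNAs. A list of 8 erythroid K562 markers had 7929.25 bp, so long coverage was not particular to the ribosomal protein genes.

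Most of the added length lay downstream of the TSS. Among the 86, the mean covered length was 2840 bp downstream of the TSS and 1300 bp upstream (medians over genes), against 1510 and 975 bp in the other genes. More bases were covered downstream than upstream in 74 of the 86 (86.05%), against 69.1% of the other genes. The same held in 53 of the 56 that have no other protein-coding TSS within 5 kb. No matching share of other genes without such a neighbour is given. The share of genes with a peak at 2 kb downstream was 64.7% against 30.8% on average over the lists, and at 2 kb upstream 19.7% against 19.9%.

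The TSS itself was mostly free of peaks. On average over the 14 lists 27.3% of the 86 genes had a peak over the TSS base, against 43.4% of the other genes. The share was lower than in the other genes in each list, between 13.95% and 37.2% against 23.7% to 53.9%. For 41 of the 86 (47.7%) the TSS was covered in no list, against 26.4% of the other genes, and for 12 (13.95%) it was covered in all 14, against 14.5% of the other genes, among them RPS29, RPS14, RPS27A, RPL10, RPL32 and RPL4. Counting a peak over any annotated start of the gene gave 17.4% to 40.7% of the 86 genes. No share of other genes is given for this count, so it makes no comparison with them. Among genes with no other TSS within 5 kb the mean shares were 23.3% and 42.8%. The 14 other genes with TOP mRNAs had a mean share of 20.9%, so a low share was not particular to ribosomal protein genes. The share was 36.6% in ribosome biogenesis genes, 36.7% in proteasome genes and 39.9% in mitochondrial ribosomal protein genes.

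**Figure D2:**
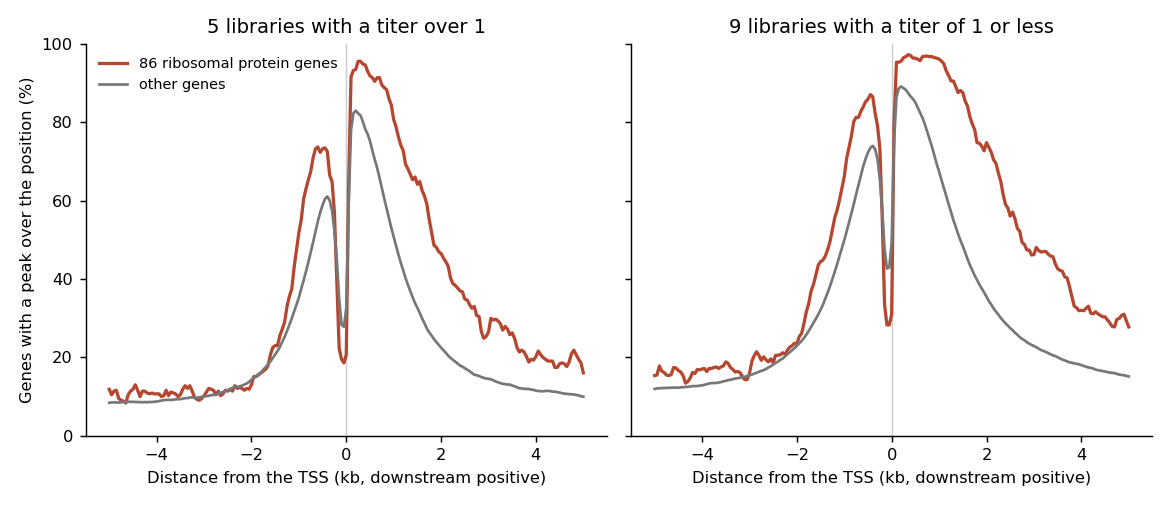
Share of genes with a peak over each position (y axis, percent) by distance from the TSS (x axis, kb, downstream positive), averaged over the 5 libraries with a titer over 1 (left) and the 9 with a titer of 1 or less (right). In both panels the line of the 86 ribosomal protein genes is above that of the other genes on both shoulders and below it just upstream of the TSS, at 19.5% against 28.3% (left) and 28.3% against 42.7% (right) 100 bp upstream.

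In the ribosomal protein genes mean coverage of the TSS differed with the start sequence, a split chosen after its values were seen. Among genes with a table entry and a peak in all lists, the 44 ribosomal protein genes with a C and 4 pyrimidines at the TSS were covered there in 22.2% of lists on average, and the 22 with another start in 45.8%. Among other genes the same split gave 50.6% for 383 genes with such a start and 42.0% for 7100 without, so the low value was not found in all genes that start this way. The contrast was weaker for a TSS covered in no list, with 21 of the 44 ribosomal protein genes (47.7%) and 8 of the 22 (36.4%). RPS14, with such a start, was covered in all 14 lists, and RPS4X, without it, in none. These shares are descriptions over genes and have no test. The median percentile was 93.4 in both groups of ribosomal protein genes, so the height of the strongest peak did not go with the start.

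The summit of the strongest peak was close to the TSS on either side. It was within 1 kb (median over lists) for 76 of the 86 genes, downstream in 50 and upstream in 26, and its median distance, without regard to side, was 340 bp against 336.5 bp in the other genes. In single lists it was within 1 kb in all 14 for 45 genes, in some for 39 and in none for 2, so for many genes the strongest peak was not the same peak in every list. The 2 were RPL26L1, with summits 4848 to 5938 bp downstream and no peak within 1 kb in any list, and RPL3L, a copy of RPL3 used in heart and skeletal muscle, with summits from −9309 to −4204 bp and the TSS of NDUFB10 at 4849 bp. RPLP0 changed peaks between the arms, with the summit between −782 and 277 bp in all 7 fixed-antibody lists and 5807 to 6654 bp downstream in all 7 normalized ones. RPL8 had its summit upstream within 1 kb in the fixed arm and between −6979 and −6841 bp in 5 of the 7 normalized lists. In RPL23A the summit was 342 to 725 bp downstream in the fixed lists of titer 4 and above and 5917 to 6080 bp downstream in the other 10 lists. RPL35 had it 151 to 329 bp downstream in 6 fixed lists and over 1 kb upstream in the other 8, and RPL36A over 4 kb upstream in 13 lists.

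Among the strongest genes by mean percentile were RPS29, RPLP0, RPL22 and RPL8, all of the ordinary ribosome. RPS29, a small-subunit protein near the decoding site, had fold enrichments of 10.5, 11.5, 12.5, 13.8, 17.2, 17.6 and 18.3 at titers 32 to 0.5 and between 14.8 and 20.3 (median 18.1) in the normalized arm. Its percentile was never below 96.2, the smallest spread of the 4 (SD 1.02 over 14 lists). RPLP0, the base of the ribosomal stalk, lay between 9.68 and 18.2 (median 12.7) in the fixed arm and between 16.9 and 21.2 (median 18.3) in the normalized arm, where the value is that of the distant peak. With peaks overlapping 1 kb around the TSS, its normalized values lay between 12.5 and 16.5 (median 13.6). RPL22, an RNA-binding protein of the large subunit, lay between 8.58 and 25.3 and between 14.2 and 19.3. RPL8, next to the site where peptide bonds form, lay between 9.90 and 18.9 and between 12.5 and 17.8, the latter from the distant peak in 5 lists, and with peaks overlapping 1 kb around the TSS between 11.8 and 17.0. In each of the 4 genes the lowest value was that of 0.31 µg at titer 32 or, in RPLP0, that at titer 8.

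The weakest genes with a peak in all lists were RPS4X, RPL26L1, RPL39, RPL38 and RPL4. RPS4X, the X-linked gene of a small-subunit protein, had fold enrichments between 4.92 and 11.3 (median 5.89) in the fixed arm and between 5.14 and 7.42 (median 6.23) in the normalized arm, and a mean percentile of 70.4. It had no covered base upstream of the TSS in any list. RPL39, a small protein in the wall of the exit tunnel and also X-linked, lay between 4.78 and 11.8 in the fixed arm and between 7.30 and 8.75 in the normalized arm. RPL38, known for its effect on the translation of Hox mRNAs in mice, lay between 6.18 and 14.4 and between 6.56 and 9.68, with no covered base upstream either. RPL4, which narrows the exit tunnel, ranged most widely, from 4.81 at titer 32 to 18.02 at titer 0.5, while its normalized values lay between 6.27 and 13.2. RPL26L1, with values from 4.21 to 14.2, is the distant peak named above.

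**Figure D3:**
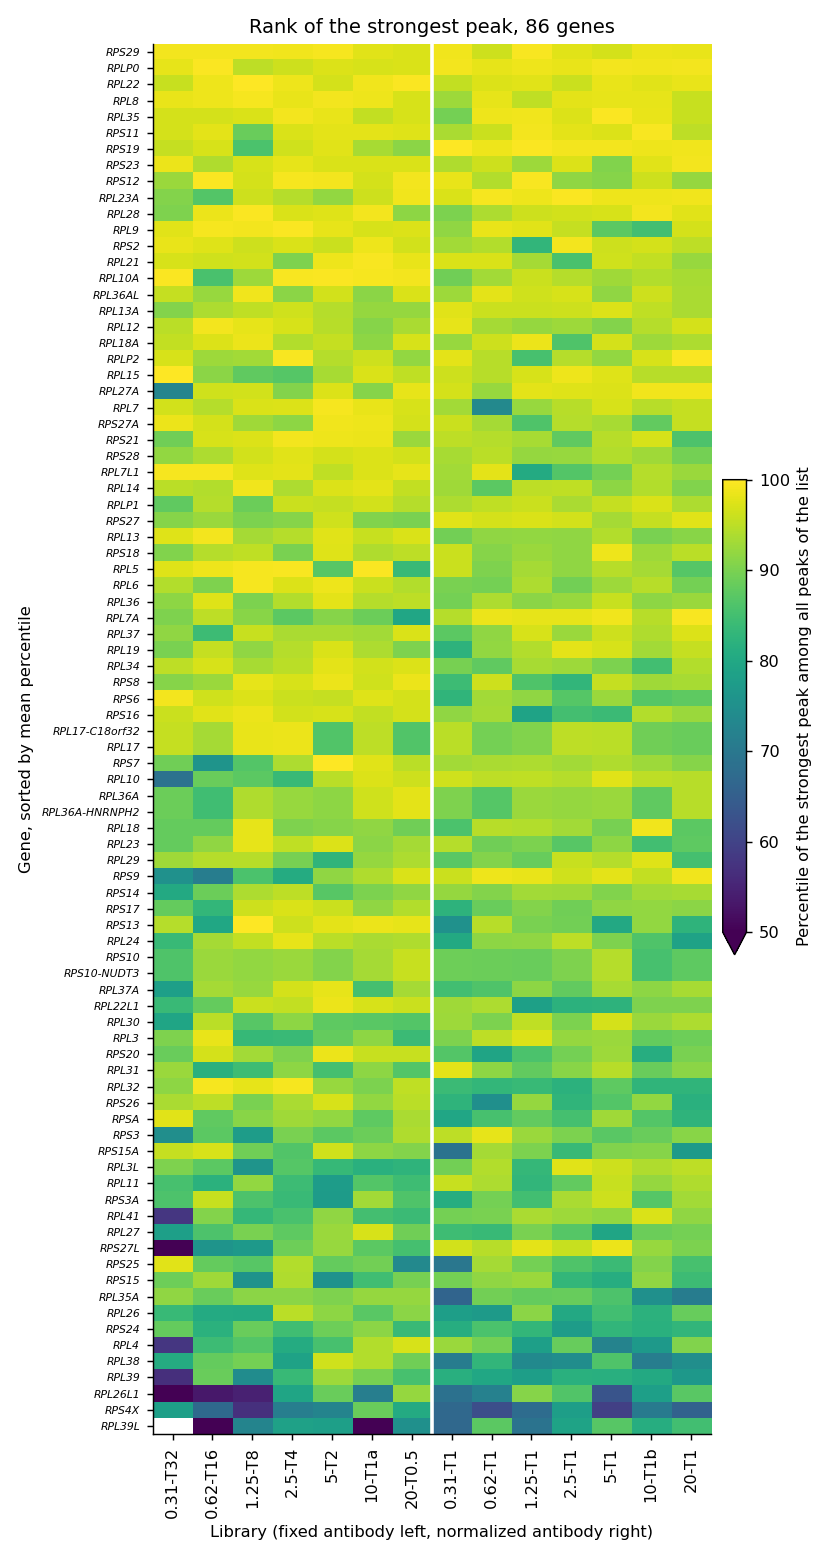
Percentile of each gene's strongest peak among all peaks of its list (color, 50 to 100, darker below) for 86 ribosomal protein genes with a peak in any list (rows, sorted by mean percentile) in the 14 libraries (columns). RPS29, RPLP0, RPL22 and RPL8 stay near the top in all libraries, RPS4X, RPL26L1 and RPL39L are lowest, and the white cell is the missing peak of RPL39L.

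The paralogs were lower as a group, with peaks in all lists for 6 of 8. Besides RPL10L and RPL39L, whose fold enrichments where found lay between 3.30 and 10.9, they varied widely. RPL36AL (mean percentile 94.9), a copy of RPL36A whose TSS is 173 bp from that of MGAT2, and RPL7L1 (94.3), a nucleolar copy of RPL7, ranked with the ordinary genes. RPL22L1 (90.4), the copy that stands in for RPL22, had values from 6.42 to 17.1 in the fixed arm and 7.45 to 13.2 in the normalized arm. RPS27L (87.2), a p53-inducible copy of RPS27, is described with the matched comparison.

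Other genes, named for their role, lay between these ends. Of the stalk proteins that recruit elongation factors, RPLP1 had values between 6.91 and 16.1 (fixed) and 12.8 and 16.5 (normalized), and RPLP2 between 8.32 and 15.9 and between 9.41 and 23.2. RPL5 and RPL11, which carry 5S RNA into the ribosome and bind MDM2 when assembly fails, had mean percentiles of 93.7 and 88.2. RPL5 was uneven, with 22.6 in the fixed-antibody library of 10 µg between 9.11 at 5 µg and 10.5 at 20 µg. RPS14, whose loss causes the anemia of the 5q deletion syndrome, lay between 6.10 and 13.96 and between 11.4 and 14.8. RPSA, first described as a laminin receptor, lay between 7.34 and 15.1 and between 8.28 and 12.7, and RPS27A, made as a fusion with ubiquitin, between 8.96 and 19.1 and between 9.78 and 16.3.

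The first comparison was the trend over titer in the fixed-antibody arm. As deposited, fold enrichment fell with titer in 79 of the 86 genes and rose in 0, where 86.1% of all 10176 genes tested fell and 0.0197% rose. The median slope of the 86 was −0.18 log2 units per doubling of titer, and −0.17 over all genes. RPS9, a small-subunit protein that binds early in assembly, had values of 5.76, 5.51, 7.44, 7.02, 10.7, 14.2 and 18.3 from titer 32 to 0.5 and the steepest slope of the 86 (−0.30 ± 0.04, SE; adjusted p = 0.000124). RPL10, which joins the large subunit last and completes it, went from 5.32 to 17.1 (−0.29 ± 0.04; adjusted p = 0.000127). RPL4 (−0.29 ± 0.04) and RPS7 (−0.29 ± 0.05) were next, and RPS7 ranged from 5.82 at titer 16 to 19.3 at titer 2. In each of these 4 genes all 4 libraries with a titer of 4 or more were below all 3 with a titer of 2 or less.

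The 7 genes that did not pass were RPL17 with its readthrough gene, RPL3, RPL3L, RPL5, RPL7A and RPS25, with slopes between −0.09 and −0.02. RPS25, which helps viral and cellular internal ribosome entry, was the flattest, with values between 7.37 and 11.6 in no order of titer (−0.02 ± 0.05; adjusted p = 0.626), and its slope was positive without the library at titer 16 (0.00074) or titer 1 (0.0097). RPL3 passed without titer 16, RPL17 without titer 2 and RPL5 without titer 0.5 (−0.16; adjusted p = 0.0402). Among the strongest genes the slopes were −0.15 ± 0.04 for RPS29, −0.14 ± 0.04 for RPLP0, −0.22 ± 0.04 for RPL22 and −0.16 ± 0.04 for RPL8, all past the threshold, and after centring RPS29, RPLP0 and RPL8 had positive slopes. Because the titer and the amount of DNAchrom change together in this arm, they cannot be told apart within it.

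The fall was that of the promoters in general. Each list was then centred on the median of all genes tested. By limma 0 of the 86 genes then rose or fell with titer, against 1.04% of all genes that rose and 0.118% that fell. Genes that did not pass were not shown to be unchanged. Centred slopes lay between −0.13 (RPS9) and 0.14 (RPS25). In covered length, log2(bp + 100) without centring, 77 of the 86 genes fell, against 68.3% of all genes, and after centring 2 did, against 0.364%. By rank, 34.9% to 52.3% of the 86 genes were in the top 5% of peaks in the fixed-antibody libraries and 25.6% to 34.9% in the normalized ones, while the other genes lay between 26.7% and 34.0% throughout. These ranges touch, the lists differ in their number of peaks, and the difference in rank was not tested.

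In the normalized arm, where the titer was 1 at every amount, no trend over DNAchrom passed. By limma 0 of the 86 genes rose or fell per doubling of DNAchrom, centred or as deposited. The background was 0.0% of all genes in either direction after centring and 0.0491% that rose as deposited. The median slope as deposited was 0.04 log2 units per doubling, positive in 67 of the 86. In mitochondrial ribosomal protein genes it was 0.03, positive in 61 of 74. After centring, which removes the shift common to all genes tested, the slope was positive in 39 of the 86. RPS19, for example, had 22.5, 18.2, 21.1, 18.8, 19.0, 18.8 and 20.5 from 0.31 to 20 µg, and RPS29 between 14.8 and 20.3, both with no order by amount. Slopes as deposited lay between −0.06 and 0.13 over the 86.

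The trends of the arms were then compared over DNAchrom. As deposited, the slope over the amount was lower in the normalized arm for 39 of the 86 genes and higher for 0, where 36.6% of all genes were lower and 0.118% higher, and the median difference was −0.14 log2 units per doubling. RPL4 (−0.32 ± 0.08, SE; adjusted p = 0.00603), RPS7 (−0.27 ± 0.06), RPS3 (−0.27 ± 0.06) and RPL10 (−0.27 ± 0.06; adjusted p = 0.00403) had the largest differences. The count was 21 without the fixed library of 20 µg or the normalized library of 0.31 µg. RPS3, a small-subunit protein at the mRNA entry, was chosen after its values were seen. In covered length 34 of the 86 were lower, against 17.1% of all genes. After centring 0 of the 86 passed by limma in fold enrichment, against 0.0197% of all genes lower and 0.0884% higher.

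**Figure D4:**
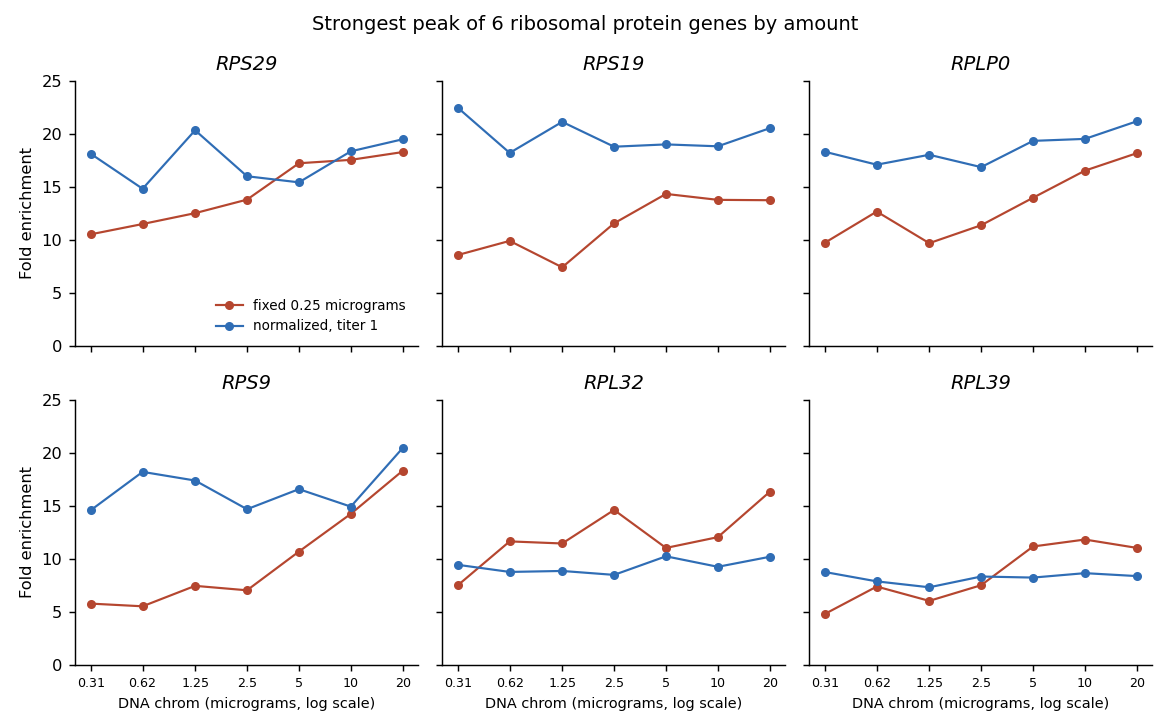
Fold enrichment of the strongest peak (y axis, linear) by amount of DNAchrom (x axis, log scale) for 6 genes in the fixed-antibody arm (red) and in the normalized arm (blue), 1 library per point. The fixed-arm value is higher at 20 µg than at 0.31 µg in all 6 panels, RPS19 is higher in the normalized arm at every amount, and RPL32 is lower there at every amount except 0.31 µg. The RPLP0 values are of different peaks in the arms.

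The arms were last compared at matched amounts of DNAchrom, over the 6 amounts other than 10 µg, with the amount as a block. At 5 of these amounts the fixed arm had the higher titer, and at 20 µg the lower (0.5 against 1). The mean difference joins both. Relative to the median gene, 5 of the 86 genes were higher and 13 lower in the normalized arm, where 10.8% of all genes were higher and 12.8% lower. These were 5.81% and 15.1% of the 86. As deposited, without centring, 25 of the 86 were higher and 0 lower, against 45.4% and 1.35% of all genes, and the medians that centring subtracts were higher in the normalized arm by 0.38 log2 units on average over the 6 amounts. The median of the 86 was −0.13 after centring and 0.24 before.

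The genes called higher were RPS9, RPS27L, RPL7A, RPS19 and RPL23A, and all 5 were also higher as deposited. RPS19, the gene most often mutated in Diamond-Blackfan anemia, had fold enrichments of 8.56, 9.90, 7.40, 11.6, 14.3, 13.8 and 13.7 from 0.31 to 20 µg in the fixed arm and of at least 18.2 in every normalized library, so the arms did not overlap. Its difference relative to the median gene was 0.53 ± 0.13 log2 units (SE; adjusted p = 0.00615), and at all 7 amounts the normalized library was higher. The summit of RPS19 was downstream of the TSS in every fixed list except that of titer 2 (−273 bp). In the normalized arm it was upstream in every list except the one with 373 bp, so most pairs compared summits on opposite sides of the TSS. RPL7A, a large-subunit protein whose TSS is 87 bp from that of MED22, had values between 7.35 and 11.5 in the fixed arm and between 13.4 and 22.4 in the normalized arm, again without overlap (0.62 ± 0.14; adjusted p = 0.00385). Its summit lay between −516 and −450 bp in the fixed lists of titer 8 and above, and 258 to 494 bp downstream in all normalized lists. Those pairs thus compared opposite sides of the TSS, while in the other pairs both summits were downstream. RPS27L, with 4.54, 5.82, 6.29, 8.67, 11.02, 10.8 and 11.01 in the fixed arm and a median of 14.3 in the normalized arm, where every value was higher, did not overlap either (0.63 ± 0.13; adjusted p = 0.00242). RPS9 gave the largest difference (0.65 ± 0.13; adjusted p = 0.00221), from 1.13 log2 units at 0.62 µg to 0.16 at 20 µg. RPL23A, a docking site for the signal recognition particle at the tunnel exit, differed by 0.47 ± 0.14 (adjusted p = 0.0168), but at 4 of the 6 amounts this set a near peak of the fixed arm against a distant peak of the normalized arm, and its call was lost when only peaks within 1 kb were used, without the 0.62 µg pair (adjusted p = 0.0695) and without the 2.5 µg pair (adjusted p = 0.06).

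The 13 genes called lower passed the test only relative to the median gene. RPL32, a large-subunit protein, had fold enrichments of 7.49, 11.6, 11.4, 14.6, 11.02, 12.04 and 16.3 in the fixed arm and between 8.48 and 10.2 in the normalized arm, so the arms overlapped. Its difference was −0.72 ± 0.14 log2 units (adjusted p = 0.00126) and was below 0 at all 7 amounts. RPS13, a small-subunit protein at the bridge between the subunits, differed by −0.60 ± 0.17 (adjusted p = 0.0162), but at 0.62 µg the sign turned (0.52) and the call was lost without the pair whose fixed library had titer 8 (adjusted p = 0.0584) or the 5 µg pair (adjusted p = 0.0628). RPS16, near the decoding site, differed by −0.56 ± 0.14 (adjusted p = 0.0073). The other 10 included RPS26, RPL38, RPL7L1, RPS6 (the substrate of the S6 kinases), RPL35A, RPS15A, RPS4X, RPS20 and RPL6, and the 10 had differences between −0.56 and −0.35. Of these 10, RPS26 and RPL38 passed with any pair left out, and the other 8 failed without at least 1 pair. The count of genes lower was 7 without the pair of titer 8 and 8 without the 5 µg or the 20 µg pair. As deposited, 0 of the 13 passed the test, 12 had a negative value and RPL6 a positive one (0.03).

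Most of these genes differed in the same direction where both arms had the same titer. At 10 µg both arms had a titer of 1, and this pair was not used in the fit. There, all 5 genes called higher were again higher and 12 of the 13 called lower were again lower, the exception being RPS26 (0.03), and over all 86 genes 62 had the same sign at 10 µg as in the mean of the 6 amounts. The difference at 10 µg was −1.07 log2 units in RPL38, −0.78 in RPL35A and in RPS20, −0.74 in RPS4X and −0.64 in RPS6, each larger in size than its mean over the 6 amounts. The other 13 called genes were smaller at 10 µg than in the mean, among them RPS15A (−0.02), RPS16 (−0.06), RPL6 (−0.07) and RPS19 (0.49). The median size at 10 µg was 0.33 log2 units in the called genes and 0.31 in all 86, where that of the called genes was 0.52 in the mean of the 6 amounts. The difference at 10 µg was 0.11 in RPS9 and 0.30 in RPS27L, smaller than at the 5 amounts with a titer over 1. The arms also differed in their input library, and the antibody amount and the arm cannot be told apart by the matched comparison.

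**Figure D5:**
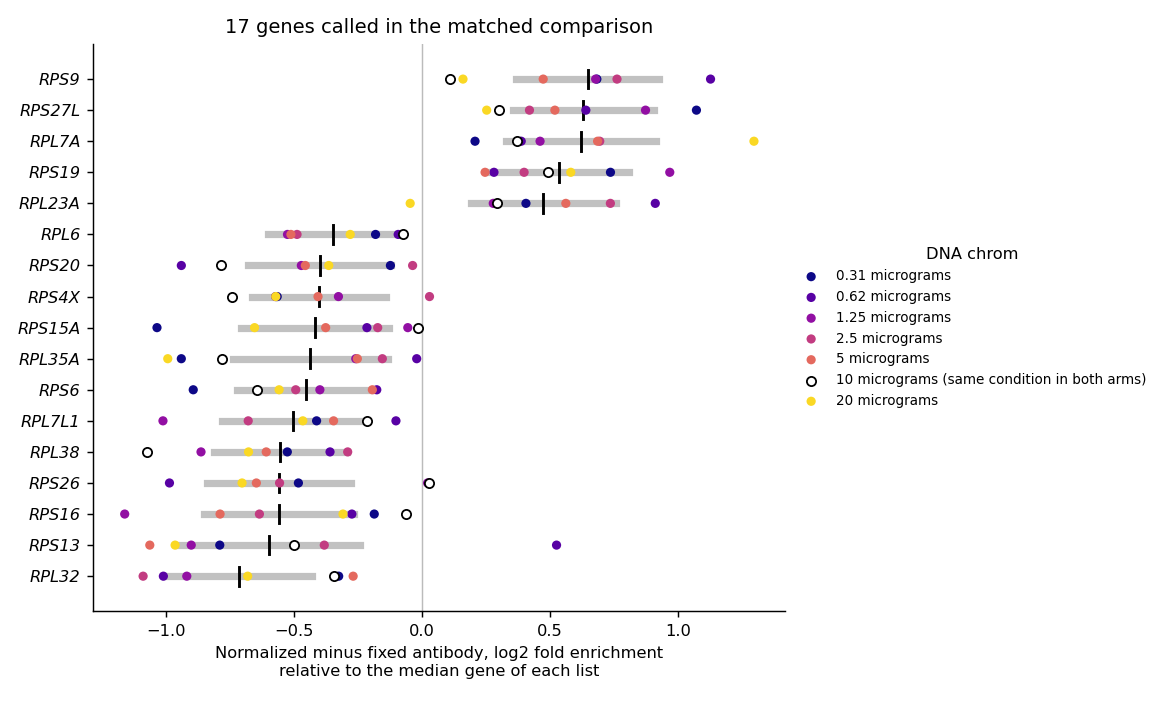
Normalized minus fixed antibody in log2 fold enrichment relative to the median gene (x axis) for 17 of the genes called (y axis), at each amount of DNAchrom (points), with the fitted mean over 6 amounts (black bar) and its 95% interval (grey). Open points are the 10 µg pair, in which both libraries had a titer of 1 and which was not fitted: 16 of the 17 lie on the same side of 0 as the mean.

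The extent of the peaks gave other calls than their height. In covered length without centring 37 of the 86 genes were higher in the normalized arm and 0 lower, against 48.3% and 0.678% of all genes. After centring 1 was higher and 5 lower, against 4.83% and 6.02%. Of the 13 genes called lower in height, 12 had a positive difference in covered length without centring, RPS4X the largest (0.79 log2 units), and RPS20 a negative one. Among lists of other genes the matched comparison called 7 higher and 5 lower of 74 mitochondrial ribosomal protein genes, 4 higher and 3 lower of 35 proteasome genes, 1 lower (EIF3E) of 14 genes with TOP mRNAs, and RRN3 higher and POLR1A lower of 16 biogenesis genes. FAU and RACK1 did not pass.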

How the data were processed

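H3K27ac ChIP-seq of K562 was analysed from 14 peak lists (7 fixed-antibody, 7 normalized), and 2 input libraries have no list of their own. Per the labels and the study's methods, the authors aligned reads with BWA (0.5.9 in the submitters' processing notes, which also name CASAVA 1.4) and called peaks per library with MACS2 against the input of its arm, without pooling. The submitters' notes name hg38, and the contig names are those of that build, while the methods name hg19. Each deposited peak has a fold enrichment (a ratio to local background), and the deposited −log10 values are of the p-value in one column and the q-value in another. They reach a q of 5%, above the 1% the methods state, so peaks with a −log10 q under 2 were left out here. In every library the peaks that remain are still more than the count the paper reports at 1%, so these lists differ from the published ones. A −log10 q and a fold enrichment depend on depth, and the peak lists hold no read counts, so no counting interval is given. The titles tell the pair made at 10 µg and titer 1 apart by a suffix (a, b), and the list of each was called against the input of the arm it was placed in.

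Coordinates were made 1-based. The TSS was the 5′ end of the RefSeq gene, with the strand from the RefSeq promoter table (70 of the 88 genes) or, by symbol, from GENCODE (18). A gene's value was the fold enrichment of its strongest peak overlapping the 5 kb on either side. Differences were tested with limma 3.58.1 (R 4.3.3) on log2 fold enrichment over the 10176 genes with a peak in all 14 lists, centred on the median gene of each list, with values as deposited as an alternative. Slopes are per doubling of titer or DNAchrom, the matched comparison has the amount as a block, and p-values were adjusted by Benjamini and Hochberg over all genes tested with a threshold of 0.05. The fits were tested on simulated data. Genes and lists were chosen with earlier results of these data known. The text names by role genes of the stalk, p53 response, Diamond-Blackfan anemia, ubiquitin fusions, the X chromosome and paralogs, and by rule genes lacking a peak in a list, the 5 highest and 5 lowest by mean percentile, and the 3 largest passing changes in each direction of a comparison. Other genes, and the start-base features, were chosen after their values were seen. Percentages over genes have no test. Values of some genes are not reported here.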

Additional observations from a re-analysis of the deposited data

Results flagged for a closer look

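In each arm, 7 summaries and the percentile of each gene named by role or rule were checked for a library far from the other 6 by Dixon's criterion for the gap over the range. Of 71 such sets 6 had one, and chance gives about 1 in 20.

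In the fixed-antibody arm the library of 0.31 µg at titer 32 was low for RPS27L (percentile 48.2, others 75.9 to 92.2) and RPL4 (57.9, others 80.8 to 97.0). RPS13 was low at 0.62 µg and titer 16 (79.9, others 94.4 to 99.8), which is also the pair in which its matched difference had the other sign. RPL8 was low at 20 µg and titer 0.5 (96.9, others 98.3 to 99.4).

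In the normalized arm the median covered length of the 86 genes was low at 0.31 µg (3867.5 bp, others 4472.5 to 4875.5 bp). At 5 µg RPL32 was high (87.6, others 82.2 to 84.1). The trend over DNAchrom as deposited differed between the arms in 39 of the 86 genes by the interaction term. The part of sequencing depth and of the arm's input in these values was not tested.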

How the results depend on the processing

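Directions and counts depended mainly on centring. Without it, the genes falling with titer went from 0 to 79 of 86, those with a lower slope in the normalized arm from 0 to 39, and those called in the matched comparison from 5 higher and 13 lower to 25 higher and 0 lower. Conversely, centring took the counts as deposited to 0, 0, and 5 and 13. Quantile normalization, q limits, all deposited peaks and the 1 kb window left the counts of genes called within 1.5 times. Covered length gave 77 falling with titer, 34 with a lower slope, and 37 higher and 0 lower in the matched comparison, and when centred (chosen after seeing the data) 2 falling, and 1 higher and 5 lower. In the matched comparison 6 were lower with missing peaks set to the lowest value and 8 over the 5 amounts with a titer over 1. Without the block on the amount it gave 6 higher and 16 lower, and 19 higher and 0 lower as deposited. Leaving out each matched pair gave 4 to 7 higher and 7 to 14 lower, and as deposited 18 to 34 higher and 0 to 1 lower. Fits as deposited that left out a library or pair, or the block, and the any-start and q limits for the TSS were chosen after seeing the data. Leaving out each library as deposited gave 69 to 81 falling with titer and 21 to 39 with a lower slope, and 0 of the centred trends was called in any such fit. Of the 88 genes, 81 to 87 had a peak in all lists under other q limits and 12 when the peak had to lie over the TSS. All counts in this paragraph are of ribosomal protein genes alone. Where no share of all genes was given above for the same setting, a count shows how the result moved. It does not show how these genes compare with others. The difference from other genes in median log2 fold enrichment went from 0.12 to 0.035 with a −log10 q of at least 5.

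Single genes turned sign as follows. In covered length without centring the matched difference was 0.072 for RPL32, 0.28 for RPS13, 0.37 for RPS16, 0.64 for RPS26, 0.32 for RPL38, 0.41 for RPL7L1, 0.56 for RPS6, 0.43 for RPL35A, 0.28 for RPS15A, 0.79 for RPS4X and 0.36 for RPL6. In centred covered length it was 0.22 for RPS26, 0.14 for RPS6, 0.012 for RPL35A, 0.37 for RPS4X, −0.013 for RPL23A, −0.024 for RPS19 and −0.097 for RPS9. As deposited RPL6 was 0.031. Centring turned the slope over titer to 0.026 for RPS19, 0.024 for RPLP0, 0.022 for RPS29, 0.0070 for RPL8, 0.077 for RPL17 and its readthrough gene, 0.078 for RPL3, 0.086 for RPL3L, 0.094 for RPL5, 0.099 for RPL7A and 0.14 for RPS25, and RPS25 was at 0.00074 without titer 16 and 0.0097 without titer 1. The cause of these changes was not tested.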
